A study of Homo sapiens with 9 samples.

Results

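The genes described here are the sensors that detect double-stranded or foreign RNA in the cytosol and the endosome, with their closest partners. They are DDX58 (RIG-I), IFIH1 (MDA5), DHX58 (LGP2), TLR3, TRIM25, MAVS, ADAR and EIF2AK2 (PKR). The 8 members were taken from the count table by gene symbol, out of 60649 genes listed, and all 8 passed the filter on low counts that left 14274 genes for testing. They were measured by RNA sequencing in 9 libraries of MDA-MB-231, a long-established human cell line from a triple-negative breast cancer, grown in DMEM with fetal bovine serum and labelled as proliferating. Of these, 3 libraries carried the control vector PLKO-GFP, 3 carried shAHR#2 and 3 carried shAHR#3, which are independent short hairpin RNAs against AHR, the gene of the aryl hydrocarbon receptor (AhR). According to the study's methods, every group was transduced with lentivirus and selected with puromycin, and the surviving cells were pooled rather than cloned. Since the paper numbers its hairpins #1 and #2, the numbers of the labels are kept. Nothing in the labels says that the 3 libraries of a group came from separate transductions, so p-values measure the spread between these libraries, which may be technical.

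RIG-I-like receptors are cytosolic helicases. RIG-I binds short double-stranded RNA whose end carries a triphosphate, MDA5 assembles along long double-stranded RNA, and LGP2 binds RNA but lacks the signalling domains of both and tunes their output. RIG-I, helped by ubiquitin ligases such as TRIM25, and MDA5 hand the signal to MAVS on the mitochondrial surface. MAVS leads through TBK1 to IRF3, and by a separate branch to NF-kB, and so to type I interferon. TLR3 reads double-stranded RNA inside endosomes and signals through another adaptor, TICAM1. ADAR converts adenosine to inosine in double-stranded RNA, which keeps the cell's own transcripts from activating MDA5, and PKR, once bound to such RNA, phosphorylates eIF2 and slows translation. Many of these genes are themselves induced by interferon.

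Promoter sequence was examined because many of these genes respond to interferon, and because AHR was the gene targeted. RefSeq promoter windows on GRCh38.p14, which run from 250 bases before to 50 bases after an annotated start, were found for 7 of the 8 members (9 windows in all). No window was found for DHX58, so its promoter was not searched. The core of the interferon-stimulated response element, searched as GAAANNGAA on both strands, was present in 8.11% of all 35116 promoter windows and in 3 members. IFIH1 held it 4 times, 3 of them overlapping each other and starting 164, 158 and 152 bases before the start, and TLR3 and EIF2AK2 held it once each. The stretches that hold these cores follow on the strand of the gene, with the cores in capitals.
IFIH1 distal, chr2:162318809-162318868, minus strand: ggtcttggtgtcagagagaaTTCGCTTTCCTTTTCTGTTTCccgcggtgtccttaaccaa
IFIH1 proximal, chr2:162318672-162318731, minus strand: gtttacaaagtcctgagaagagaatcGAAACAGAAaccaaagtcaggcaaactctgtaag
TLR3, chr4:186069127-186069186, plus strand: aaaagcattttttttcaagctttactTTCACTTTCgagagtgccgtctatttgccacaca
EIF2AK2, chr2:37156953-37157012, minus strand: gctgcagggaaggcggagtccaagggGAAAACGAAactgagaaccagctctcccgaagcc

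The core bound by AhR with its partner ARNT, searched as GCGTG on both strands, is common, being present in 36.5% of all windows. DDX58, MAVS and ADAR held it. DDX58 and MAVS had 1 window each and ADAR had 3. The ADAR windows that overlap hold the same site, and the remaining ADAR window holds none. Each core lay on the strand opposite to the gene, so that it reads CACGC on the strand of the gene, in capitals.
DDX58, chr9:32526224-32526264, minus strand: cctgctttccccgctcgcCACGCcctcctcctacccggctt
MAVS, chr20:3846752-3846792, plus strand: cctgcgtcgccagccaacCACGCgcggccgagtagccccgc
ADAR, chr1:154627992-154628032, minus strand: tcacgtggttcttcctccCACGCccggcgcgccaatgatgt

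The gamma-activated site, searched as TTCNNNGAA, was present in 7.66% of windows and in TLR3 alone among the 7 members with a window. These are matches of letters in a fixed window, not measured binding, and no factor's binding was measured in these samples.

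Total counts per library ranged from 15991396 to 20374460. AHR, the targeted gene, stood at 114 to 121 CPM (the counts-per-million scale, on library sizes scaled by the TMM method) with PLKO-GFP, 40.4 to 42.5 with shAHR#2 and 44.5 to 52.1 with shAHR#3. Its log2 fold change against PLKO-GFP was -1.50 ± 0.05 (SE) with shAHR#2 and -1.31 ± 0.05 with shAHR#3 (edgeR adjusted p = 1.05e-25 and 4.95e-24). Calls throughout are those of the quasi-likelihood test in edgeR at a threshold of 0.05, with p-values adjusted over the 14274 genes by the Benjamini-Hochberg method. Epithelial keratins were abundant (KRT8 mean 284 CPM with PLKO-GFP), whereas the epithelial markers EPCAM and CDH1 stood at 6.62 and 0.909 CPM. Of the mesenchymal markers, VIM averaged 2630 CPM with PLKO-GFP, FN1 814, ZEB1 125 and CDH2 0.351. PGR had no read in any library and ESR1 had 0 to 4, whereas ERBB2 was read at 62.4 CPM with PLKO-GFP.

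Per unit of length the 8 members fell into an abundant and a scarce class. In PLKO-GFP cells, CPM per kilobase of annotated exon (RPKM) averaged 24.5 for ADAR, 20.8 for MAVS, 16.8 for TRIM25 and 13.2 for EIF2AK2. The RNA-binding receptors themselves were far lower, at 2.03 for IFIH1, 1.18 for TLR3, 0.708 for DHX58 and 0.137 for DDX58. The DDX58 level and its rank are uncertain, because 96.6% of its canonical transcript is shared with another gene on its strand. The median over the 14252 tested genes with a length was 4.05, so that the adaptor, the ligase and both effectors lay above it and all 4 receptors below. As percentiles of those genes the members ran from 5.02 for DDX58 to 88.4 for ADAR. Within PLKO-GFP no neighbours in this order had overlapping ranges over the 3 libraries.

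**Figure D1:**
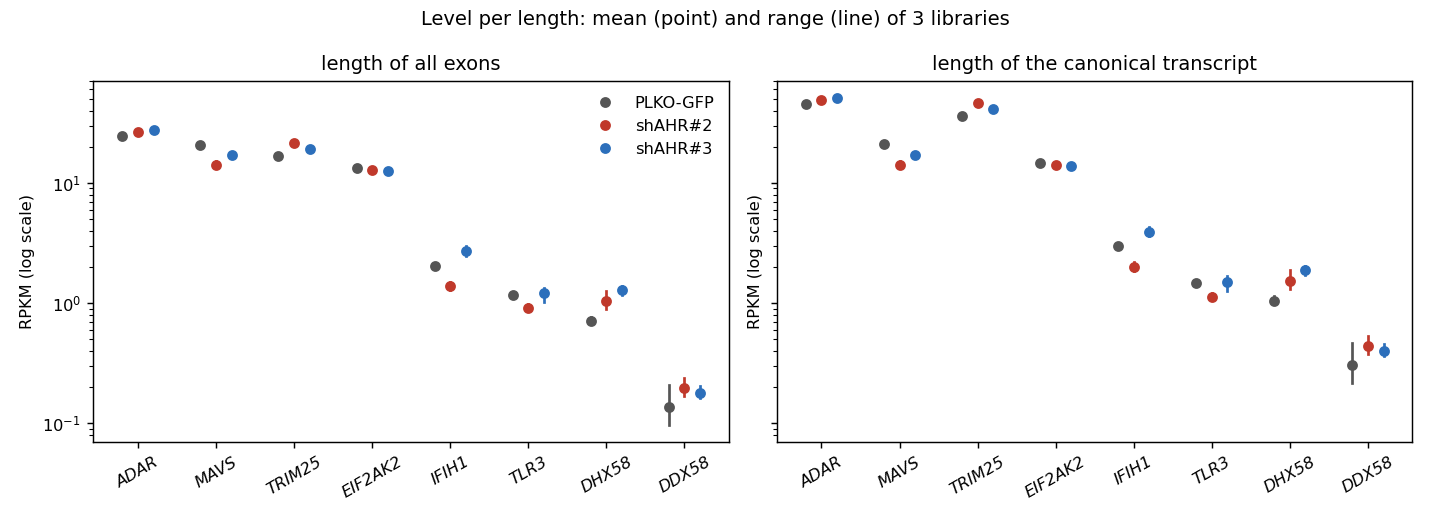
Level of each RNA sensor gene per unit of length (RPKM, log axis), with length taken over all annotated exons (left) or over the canonical transcript (right). Points are means of 3 libraries and vertical lines their range. ADAR, MAVS, TRIM25 and EIF2AK2 lie between 12.5 and 27.4 RPKM on the left panel, and the 4 receptors between 0.137 and 2.7. The level of DDX58 is uncertain, because 96.6% of its canonical transcript is shared with another gene on its strand.

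The order was not the same in every group. By exon length TRIM25 exceeded MAVS in shAHR#2 cells (21.6 against 14.2 RPKM) and in shAHR#3 cells (19.1 against 17), the reverse of PLKO-GFP. With the length of the canonical transcript in place of all exons, an alternative chosen after seeing the data, TRIM25 exceeded MAVS in PLKO-GFP cells as well (36.3 against 20.9), so the order of these genes depends on the length used. DHX58 lay below TLR3 in PLKO-GFP cells by either length. In shAHR#2 its range of 0.898 to 1.27 RPKM overlapped that of TLR3 (0.859 to 0.979) by exon length, and by canonical length the DHX58 range (1.32 to 1.88) lay above that of TLR3 (1.07 to 1.22). In shAHR#3 the DHX58 range by exon length (1.16 to 1.39) likewise overlapped that of TLR3 (1.02 to 1.34). By canonical length it again lay above that of TLR3 (1.71 to 2.04 against 1.27 to 1.68).

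Against PLKO-GFP, 6 of the 8 members passed the test with shAHR#2, where 65.8% of all genes tested did. Of these, 3 rose and 3 fell, beside a background of 32.6% higher and 33.2% lower. With shAHR#3 again 6 of 8 passed, against a background of 54.4%, with 4 higher and 2 lower beside 26.9% and 27.5%. Between the hairpins, with shAHR#3 set against shAHR#2, 4 of 8 passed beside 42.3% of all genes, 3 of them higher and 1 lower beside 21.9% and 20.4%. These counts were near the background, so it is the size and direction of each gene that the following paragraphs give. Both comparisons with PLKO-GFP share the same 3 control libraries. The median log2 fold change of the members was 0.03 with shAHR#2 and 0.18 with shAHR#3, where the medians of all genes were -0.003 and -0.000.

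**Figure D2:**
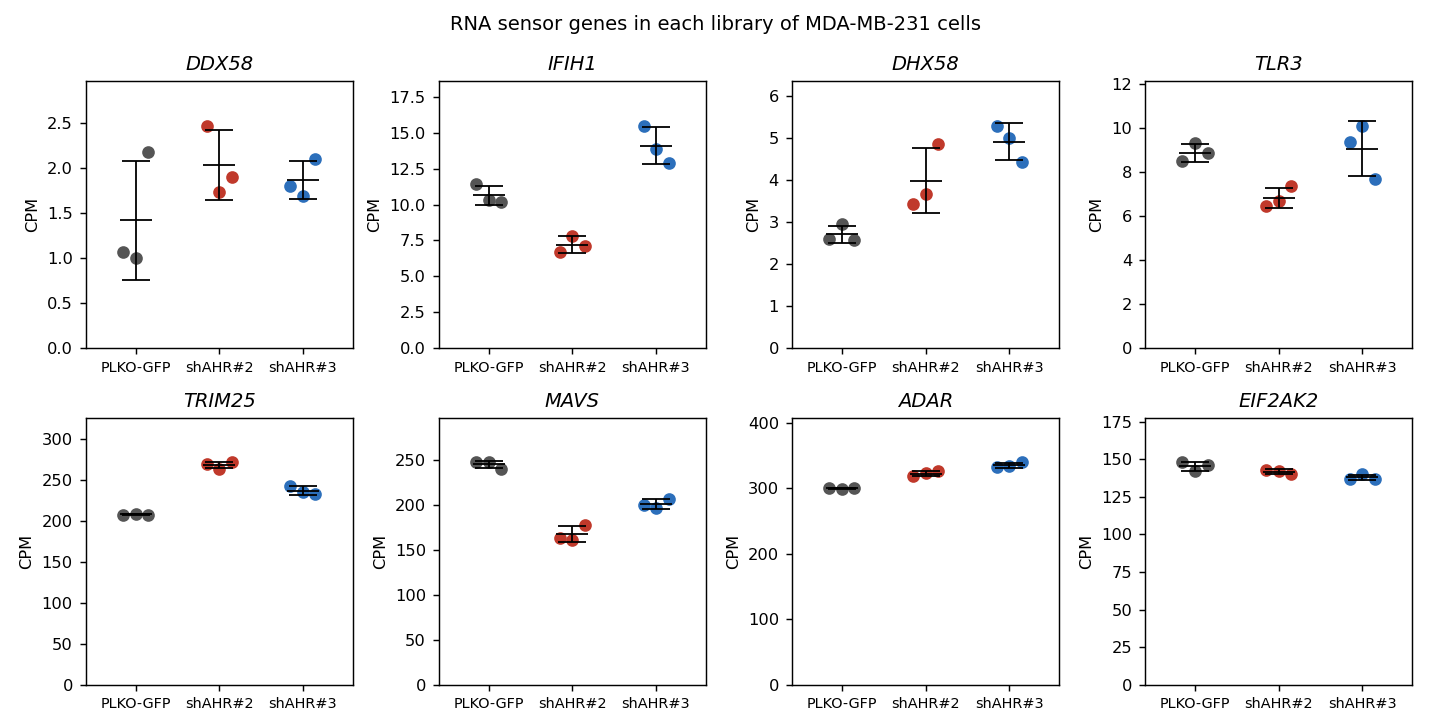
Level (CPM, TMM-scaled, linear axis from 0) of the 8 RNA sensor genes in each library of PLKO-GFP, shAHR#2 and shAHR#3. Points are libraries, the middle bar is the mean and the outer bars are 1 SD on each side. IFIH1 is lowest with shAHR#2 (6.7 to 7.83) and highest with shAHR#3 (12.9 to 15.5), while MAVS is lower and TRIM25 higher than PLKO-GFP with both.

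IFIH1 encodes MDA5 (ENSG00000115267.9, chr2:162267074-162318684, minus strand, GRCh38). It was the member that the hairpins moved in opposite directions. Its CPM was 11.4, 10.3 and 10.2 in the PLKO-GFP libraries, 6.7, 7.83 and 7.09 with shAHR#2, and 15.5, 13.9 and 12.9 with shAHR#3. No library of any group overlapped with another group. The means were 10.6 ± 0.631 (SD, n = 3), 7.21 ± 0.575 and 14.1 ± 1.34. IFIH1 fell to 67.9% of control with shAHR#2 (log2 fold change -0.56 ± 0.11 SE, edgeR adjusted p = 3.32e-05) and rose to 133% with shAHR#3 (0.41 ± 0.10, edgeR adjusted p = 0.000438). The direct comparison of the hairpins gave a log2 difference of 0.97 ± 0.11, with a 95% interval of 0.76 to 1.19 (edgeR adjusted p = 9.43e-10), which was the largest absolute difference among the 8 members in the 3 comparisons. In bulk RNA, fewer cells that express a gene and less RNA of it per cell cannot be told apart, for this gene or any other.

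DHX58 encodes LGP2 (ENSG00000108771.13, chr17:42101404-42112714, minus strand). Its CPM was 2.6, 2.95 and 2.58 with PLKO-GFP, 3.43, 3.66 and 4.87 with shAHR#2, and 5.3, 5.01 and 4.44 with shAHR#3. Every hairpin library lay above every control library. DHX58 rose to 147% of control with shAHR#2 (log2 fold change 0.55 ± 0.18, edgeR adjusted p = 0.00766) and to 182% with shAHR#3 (0.86 ± 0.17, edgeR adjusted p = 4.35e-05). The hairpins' ranges overlapped, and their log2 difference of 0.31 (95% interval -0.02 to 0.64) missed the threshold at an edgeR adjusted p of 0.125. Replicate 3 of shAHR#2 was the highest of its group, and both calls turned on it. Without it the log2 fold change with shAHR#2 was 0.386 (edgeR adjusted p = 0.09) and the difference between the hairpins was 0.475 (edgeR adjusted p = 0.0348). These values rest on 46 to 103 reads per library.

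DDX58, the gene of RIG-I (listed as RIGI in the annotation, ENSG00000107201.11, chr9:32455302-32526208, minus strand), was the scarcest member by these counts. It had 19, 20 and 43 reads in the PLKO-GFP libraries, 46, 27 and 30 with shAHR#2 and 35, 33 and 43 with shAHR#3. As CPM these were 1.07, 0.999 and 2.18, then 2.47, 1.73 and 1.9, then 1.8, 1.69 and 2.1. The third PLKO-GFP library thus lay among the hairpin libraries, and the other 2 lay below them all. The log2 fold change was 0.52 with shAHR#2 (95% interval -0.03 to 1.08, edgeR adjusted p = 0.0909) and 0.39 with shAHR#3 (-0.16 to 0.94, edgeR adjusted p = 0.231). Both calls depend on that library, since without PLKO-GFP replicate 3 the values were 0.982 (edgeR adjusted p = 0.00567) and 0.846 (edgeR adjusted p = 0.0195).

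How DDX58 was counted also limits it. Another protein-coding gene in the table, RP11-205M20.8, lies on the same strand and shares 4471 of the 4628 bases of the canonical DDX58 transcript. It received 0 to 11 reads per library. How reads on shared exons were assigned is not given in the sources used here. With the counts of both genes added together, an alternative chosen after seeing the data, DDX58 passed no comparison. That sum holds only reads assigned to one gene or the other. Reads on shared exons that were left out of both, if any, are not in it, so it does not settle how the overlap affects DDX58. The level of DDX58 relative to the other members is therefore uncertain in a way that does not touch the other 7, which share at most 9.36% of their canonical transcript with any other annotated gene.

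TLR3, the endosomal receptor (ENSG00000164342.13, chr4:186068911-186088073, plus strand), was lower with shAHR#2. Its CPM was 8.47, 9.29 and 8.86 with PLKO-GFP, 6.44, 6.68 and 7.34 with shAHR#2, and 9.36, 10.1 and 7.67 with shAHR#3. All shAHR#2 libraries lay below all others. TLR3 fell to 76.8% of control with shAHR#2 (log2 fold change -0.38 ± 0.12, edgeR adjusted p = 0.00537), whereas the value with shAHR#3 was 0.02 (95% interval -0.20 to 0.25, edgeR adjusted p = 0.881). The difference between the hairpins passed the test at 0.41 ± 0.12 (edgeR adjusted p = 0.00539). It did not without shAHR#3 replicate 2, at 0.321 (edgeR adjusted p = 0.0513).

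TRIM25, the ubiquitin ligase that acts on RIG-I (ENSG00000121060.19, chr17:56836387-56914080, minus strand), rose with both hairpins. Its CPM was 208, 209 and 208 with PLKO-GFP, 270, 264 and 272 with shAHR#2, and 243, 236 and 233 with shAHR#3. The 3 groups were fully separate. The rise was to 129% of control with shAHR#2 (log2 fold change 0.37 ± 0.03, edgeR adjusted p = 3.79e-14) and to 114% with shAHR#3 (0.19 ± 0.03, edgeR adjusted p = 4.03e-07). The level with shAHR#3 was below that with shAHR#2 by a log2 difference of -0.18 ± 0.03 (edgeR adjusted p = 1.93e-06).

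MAVS, the mitochondrial adaptor on which RIG-I and MDA5 converge (ENSG00000088888.18, chr20:3846799-3876123, plus strand), fell with both hairpins. Its CPM was 247, 247 and 240 with PLKO-GFP, 163, 161 and 177 with shAHR#2, and 200, 196 and 206 with shAHR#3. Again the 3 groups did not overlap, with shAHR#2 lowest. MAVS was at 68.3% of control with shAHR#2 (log2 fold change -0.55 ± 0.03, edgeR adjusted p = 1.91e-17) and at 82% with shAHR#3 (-0.29 ± 0.03, edgeR adjusted p = 7.83e-10). The hairpins differed by 0.26 ± 0.03 (edgeR adjusted p = 1.92e-08).

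ADAR, the RNA-editing deaminase (ENSG00000160710.18, chr1:154581695-154628013, minus strand), was the most abundant member and moved little. Its CPM was 300, 299 and 301 with PLKO-GFP, 319, 323 and 326 with shAHR#2, and 333, 334 and 340 with shAHR#3. The control libraries lay close together (SD 1.44 CPM, n = 3), and all hairpin libraries were above them. ADAR rose to 108% of control with shAHR#2 (log2 fold change 0.10 ± 0.03, edgeR adjusted p = 0.000641) and to 112% with shAHR#3 (0.16 ± 0.03, edgeR adjusted p = 1.61e-06). Between the hairpins the difference was 0.06 (95% interval 0.00 to 0.11, edgeR adjusted p = 0.0769), and it passed at 0.0461 when the test was limited to genes averaging 50 counts or more. Counts per gene do not separate the interferon-inducible transcript of ADAR from the constitutive transcript.

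EIF2AK2, the gene of PKR (ENSG00000055332.19, chr2:37099210-37157522, minus strand), changed least. Its CPM was 148, 142 and 146 with PLKO-GFP, 143, 142 and 140 with shAHR#2, and 137, 140 and 137 with shAHR#3. The shAHR#2 range overlapped the control range, and the log2 fold change was -0.04 (95% interval -0.10 to 0.03, edgeR adjusted p = 0.294). With shAHR#3 it fell by 0.08 on the log2 scale to 94.8% of control (edgeR adjusted p = 0.0395). That call was lost with DESeq2 (adjusted p = 0.0671), without the filter on low counts (edgeR adjusted p = 0.0867), in a fit to these groups alone (edgeR adjusted p = 0.0822), and without replicate 1 or 3 of PLKO-GFP (edgeR adjusted p = 0.14 and 0.088) or replicate 1 or 3 of shAHR#3 (edgeR adjusted p = 0.145 and 0.0637).

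**Figure D3:**
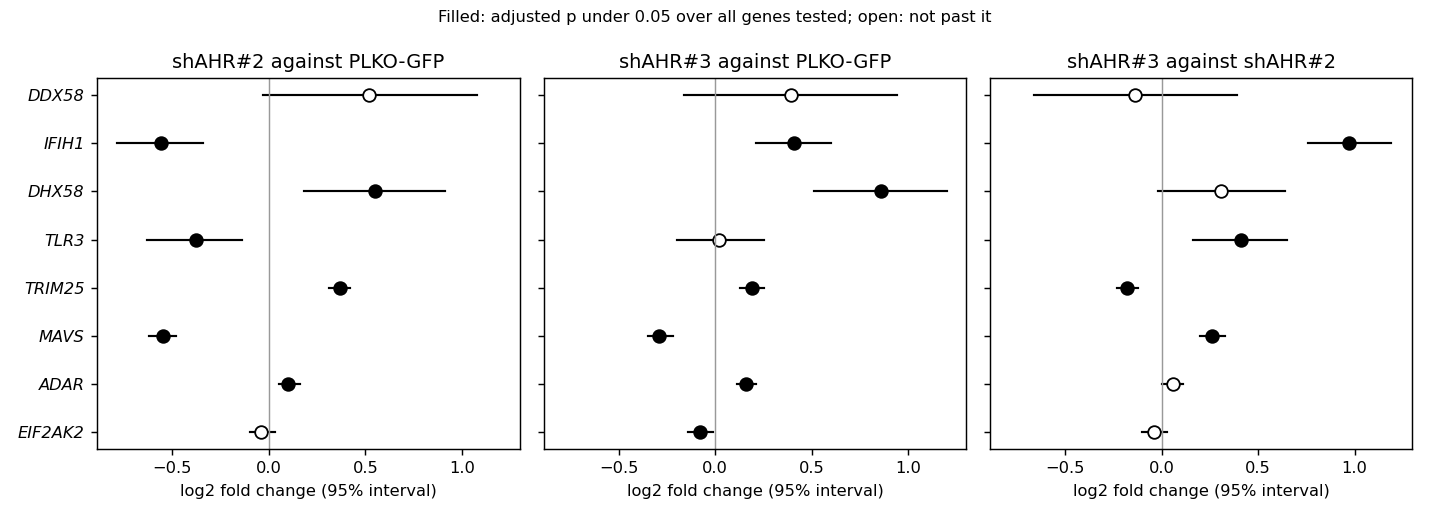
Log2 fold change of each RNA sensor gene with its 95% interval, for shAHR#2 against PLKO-GFP, shAHR#3 against PLKO-GFP and shAHR#3 against shAHR#2. Filled points passed an edgeR adjusted p of 0.05 over all 14274 genes and open points did not. IFIH1 lies at -0.56, 0.41 and 0.97 in the 3 panels, while EIF2AK2 and ADAR lie within 0.16 of 0 in each.

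The members did not vary as a block. Over the 9 libraries, Pearson's r of log2 CPM was -0.97 between MAVS and TRIM25, 0.92 between DHX58 and ADAR, and 0.80 between IFIH1 and TLR3. Between DDX58 and IFIH1 it was -0.25, and between IFIH1 and DHX58 it was 0.27. These are descriptions over libraries that fall into 3 groups and share a control, so they mostly restate the group means. Groups did not overlap for 6 members with shAHR#2 and 6 with shAHR#3 against PLKO-GFP and for 5 between the hairpins, where 68.2%, 58.7% and 49.6% of all genes tested did not overlap.

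Genes outside the members whose log2 CPM ran most closely with each of them were found by the same measure over the 9 libraries among all genes tested. The nearest to IFIH1 were YOD1 (r = 0.988), UCP2 (0.986) and VPS13B (0.983), and to TLR3 they were ANK3 (0.969), TMTC3 (0.964) and RRM2B (0.963). For DHX58 they were BMPR1B (0.975), PKDCC (0.962) and TM7SF3 (0.961), and for DDX58 RP11-417L19.6 (0.954), RSPRY1 (0.924) and NRARP (0.920). MAVS was nearest to CNNM3 (0.994), XRN2 (0.994) and SFXN2 (0.993), and TRIM25 to RREB1, RNF149 and B3GALT5 (0.996 each). ADAR was nearest to CMIP (0.994), IFNGR1 (0.990) and CSPG4 (0.990), and EIF2AK2 to TAF1D (0.957), HNRNPA1P16 (0.948) and TSR2 (0.944). None of the 8 had another member among its 3 nearest genes. The closest of all genes tested are close by selection.

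Other genes of the RNA-sensing pathways were followed through 7 lists holding 114 genes, of which 100 could be tested. With shAHR#2, 68 of the 100 passed (28 higher and 40 lower), beside 65.8% of all genes tested (32.6% higher and 33.2% lower). With shAHR#3, 59 passed (30 higher and 29 lower) beside 54.4% (26.9% and 27.5%). Between the hairpins 47 differed (27 higher and 20 lower with shAHR#3) beside 42.3% (21.9% and 20.4%). These totals were near the background too. Their median log2 fold changes were -0.04, -0.01 and 0.05, against -0.003, -0.000 and 0.007 over all genes.

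Among 15 cofactors and regulators of the RIG-I-like receptors, 1 rose and 10 fell with shAHR#2 (median log2 fold change -0.20), beside 32.6% and 33.2% of all genes, and 3 rose and 7 fell with shAHR#3 (-0.08), beside 26.9% and 27.5%. RNF125, a ubiquitin ligase that marks RIG-I and MDA5 for degradation, rose from a mean of 1.42 CPM with PLKO-GFP to 6.85 with shAHR#2 (log2 fold change 2.26 ± 0.18, edgeR adjusted p = 1.31e-13) and 4.31 with shAHR#3 (1.59 ± 0.19, edgeR adjusted p = 5.48e-09). ZCCHC3, which helps RIG-I and MDA5 to bind RNA, fell from 27.6 CPM to 15.8 and 22.9 (edgeR adjusted p = 2.59e-12 and 0.000778). TRIM65, the ubiquitin ligase that activates MDA5, fell from 46.7 CPM to 31.6 and 37.5 (edgeR adjusted p = 5.29e-11 and 4.86e-06).

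Downstream of MAVS, 9 of 27 signalling genes were higher and 8 lower with shAHR#2, beside 32.6% and 33.2% of all genes, and 6 were higher and 6 lower with shAHR#3, beside 26.9% and 27.5%. The median log2 fold change was 0.01 in both. TBK1, the kinase that phosphorylates IRF3, fell from 59.3 CPM with PLKO-GFP to 37.6 with shAHR#2 and 51.6 with shAHR#3 (edgeR adjusted p = 1.21e-13 and 0.00075). MARCHF5, a mitochondrial ubiquitin ligase that removes MAVS aggregates, fell by 0.53 and 0.39 on the log2 scale (edgeR adjusted p = 5.27e-11 and 4.4e-08). TRAF3, which couples MAVS to TBK1, rose by 0.47 and 0.20 (edgeR adjusted p = 3.74e-11 and 0.000393), and IKBKB, a kinase of the NF-kB branch, by 0.52 and 0.26 (edgeR adjusted p = 2.1e-11 and 3.16e-05).

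On the endosomal side 8 of 11 genes could be tested, with 4 higher and 2 lower with shAHR#2 (beside 32.6% and 33.2% of all genes) and 3 higher and 1 lower with shAHR#3 (beside 26.9% and 27.5%). UNC93B1, the chaperone that carries TLR3 to endosomes, rose by 0.22 and 0.32 on the log2 scale (edgeR adjusted p = 0.0152 and 0.000516), the first of which was lost without PLKO-GFP replicate 1 (0.191, edgeR adjusted p = 0.0579) or shAHR#2 replicate 1 (0.203, edgeR adjusted p = 0.0526). HSP90B1, a chaperone for toll-like receptors in the endoplasmic reticulum, rose by 0.34 and 0.20 (edgeR adjusted p = 1.81e-14 and 1.08e-08). The other RNA-reading endosomal receptors TLR7 and TLR8 had no read in any library.

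Of 23 other tested genes for proteins that bind or remove foreign or double-stranded RNA, 7 rose and 11 fell with shAHR#2, beside 32.6% and 33.2% of all genes, and 10 rose and 7 fell with shAHR#3, beside 26.9% and 27.5%. OAS1, which makes the activator of RNase L, rose by 2.14 and 3.32 on the log2 scale from a mean of 1 CPM (edgeR adjusted p = 7.67e-12 and 6.71e-19). OASL, a relative that enhances RIG-I signalling, rose from 13.1 CPM to 20.9 and 34.4 (edgeR adjusted p = 3.92e-08 and 5.36e-17). IFIT5, which binds RNA with a triphosphate end, fell from 64.5 CPM to 20.8 and 39.7 (edgeR adjusted p = 1.92e-24 and 1.21e-14). ADARB1, the other catalytically active editing enzyme of the ADAR family, fell by 0.66 and 0.37 (edgeR adjusted p = 1.15e-09 and 3.48e-05), so that both editing genes passed the test in opposite directions.

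The eIF2 branch around PKR held 14 genes, of which 4 rose and 4 fell with shAHR#2 (beside 32.6% and 33.2% of all genes) and 3 rose and 4 fell with shAHR#3 (beside 26.9% and 27.5%). DNAJC3, an inhibitor of PKR, rose by 0.44 and 0.21 on the log2 scale (edgeR adjusted p = 1.27e-12 and 1.41e-05), and EIF2B2, a subunit of the exchange factor that eIF2 phosphorylation blocks, by 0.35 and 0.37 (edgeR adjusted p = 5.87e-09 and 2.76e-09). EIF2AK4, the kinase GCN2 that acts on eIF2 during amino acid shortage, fell by 0.20 and 0.35 (edgeR adjusted p = 1.13e-05 and 2.57e-10). EIF2B4, another exchange factor subunit, fell by 0.16 and 0.20 (edgeR adjusted p = 0.0457 and 0.0129). The first of these calls for EIF2B4 was lost with DESeq2 (adjusted p = 0.0947) and with the DESeq2 size factors in edgeR (edgeR adjusted p = 0.0513). It was also lost without the filter on low counts (edgeR adjusted p = 0.0775), and without replicate 1 or 3 of PLKO-GFP (-0.151 and -0.13) or replicate 2 or 3 of shAHR#2 (-0.123 and -0.15). The second was lost without PLKO-GFP replicate 3 (-0.171, edgeR adjusted p = 0.0663).

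**Figure D4:**
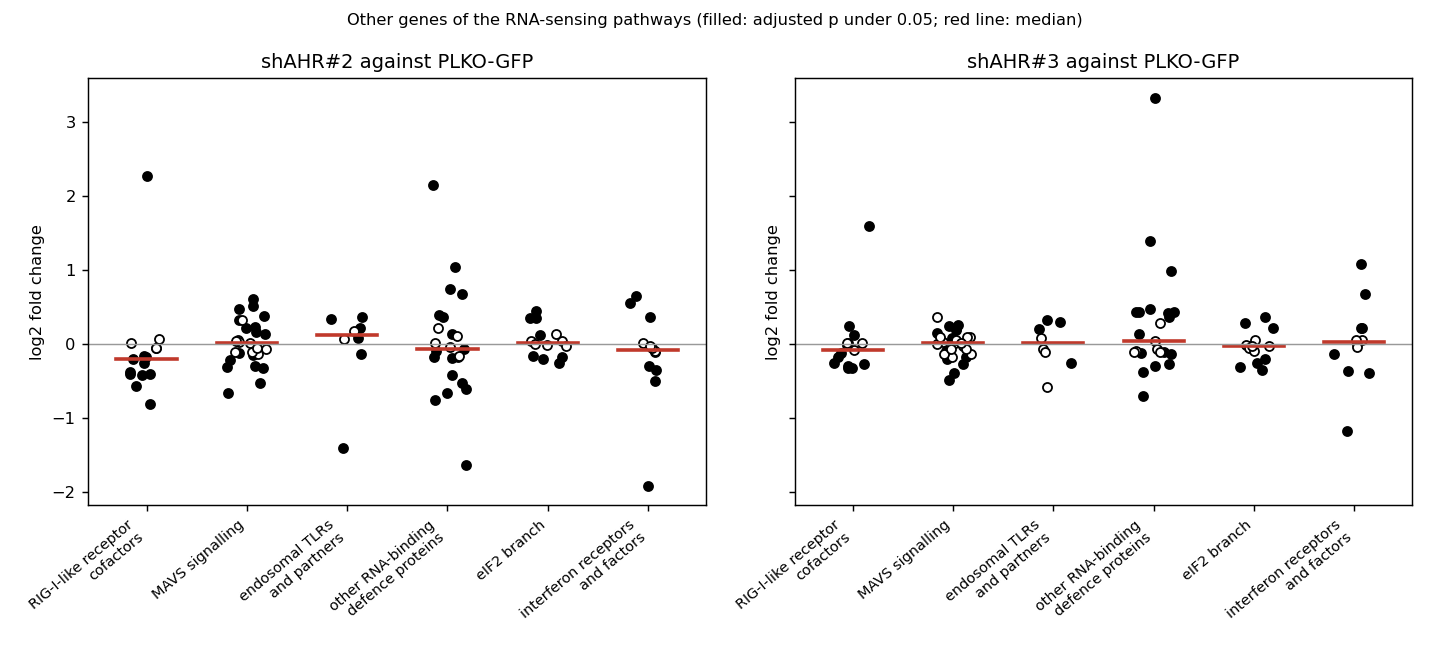
Log2 fold change against PLKO-GFP of the tested genes in 6 lists around the RNA sensors, for shAHR#2 (left) and shAHR#3 (right). Each point is a gene, filled where the edgeR adjusted p was under 0.05, and the red line is the median of the list. The medians lie between -0.20 and 0.13 on the left and between -0.08 and 0.04 on the right, with single genes as far as 3.32.

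Transcripts that these sensors induce were scarce. IFNB1, IFNL2, IFNL3 and TNF had no read in any of the 9 libraries, and IFNL1 had at most 1. CCL5 had 0 reads in every PLKO-GFP library, 1 to 2 with shAHR#2 and 0 to 3 with shAHR#3, and CXCL10 had 0 to 1, 0 to 2 and 3 to 5. At these totals a count of 0 allows a level of up to 3 reads, or 0.146 to 0.193 CPM. Reads were not tagged with molecular identifiers, so this limit takes in counting error alone. Counts of 1 to 5 reads show that a transcript was read, but are too few to compare groups. IL6 was the only gene of the 9 outputs that could be tested, with 78 to 114 reads with PLKO-GFP, 77 to 97 with shAHR#2 and 190 to 204 with shAHR#3. It rose with shAHR#3 by a log2 fold change of 1.06 ± 0.14 (edgeR adjusted p = 2.04e-08), while the value with shAHR#2 was 0.09 ± 0.16 (edgeR adjusted p = 0.614).

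Among 12 tested genes for interferon receptors and the factors behind interferon-stimulated genes, 3 rose and 5 fell with shAHR#2, beside 32.6% and 33.2% of all genes, and 4 rose and 4 fell with shAHR#3, beside 26.9% and 27.5%. STAT2, a transcription factor of the type I interferon response that was named after its values were seen, had log2 fold changes of -0.11 with shAHR#2 (edgeR adjusted p = 0.0326, lost with DESeq2 at 0.0815) and 0.21 with shAHR#3 (edgeR adjusted p = 4.63e-05). Its call with shAHR#2 was also lost without the filter on low counts (edgeR adjusted p = 0.0511). USP18, which restrains interferon receptor signalling, rose by 0.65 with shAHR#2 (edgeR adjusted p = 0.0324, lost with DESeq2 at 0.0637) and by 1.08 with shAHR#3 (edgeR adjusted p = 0.000332). For both genes the call with shAHR#2 was also lost without replicate 1 or 3 of PLKO-GFP or replicate 1 or 3 of shAHR#2, where STAT2 ran from -0.112 to -0.0808 and USP18 from 0.586 to 0.639. IFNLR1, the receptor chain for type III interferon, rose by 0.55 and 0.67 (edgeR adjusted p = 0.00132 and 0.000105). IFNAR2, a chain of the type I receptor, fell by 0.35 and 0.36 (edgeR adjusted p = 0.0177 and 0.0148), and both calls were lost without PLKO-GFP replicate 2 (-0.25 and -0.26, edgeR adjusted p = 0.127 and 0.12). The first was also lost without shAHR#2 replicate 2 (-0.307) and the second without shAHR#3 replicate 2 (-0.281). IFNAR2 shares 49.1% of its canonical transcript with another gene on its strand.

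Epithelial, mesenchymal, endothelial and leukocyte marker genes moved between the groups too. Summed over 5 epithelial markers, levels were 677 to 713 CPM with PLKO-GFP, 755 to 783 with shAHR#2 and 859 to 913 with shAHR#3. With shAHR#2, mean KRT19 rose from 99.8 to 171 CPM and CDH1 from 0.909 to 1.8. KRT8, KRT18 and EPCAM did not pass with shAHR#2 (edgeR adjusted p = 0.268, 0.559 and 0.383). Over 4 mesenchymal markers the summed levels were 3560 to 3590, 6380 to 6560 and 5170 to 5220, mostly VIM and FN1. The 3 endothelial markers summed to 2.15 to 2.71, 10.4 to 12.7 and 12 to 13.3, nearly all of it PECAM1. The 4 leukocyte markers summed to 0.699 to 1.02, 1.46 to 2.9 and 1.69 to 2.29, with CD3E, a T cell marker, at 0 reads in every library. PTPRC, the marker common to leukocytes, had 1 to 4 reads with PLKO-GFP, 14 to 33 with shAHR#2 and 14 to 30 with shAHR#3, and passed the test as higher with both (edgeR adjusted p = 2.63e-07 and 1.05e-05). Whether these markers have a part in the values of the RNA sensor genes was not tested.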

How the data were processed

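The authors prepared libraries with a stranded mRNA kit, sequenced them from a single end, aligned them with STAR to GRCh38.p13, and deposited raw counts per gene. The submitters' processing notes also name FastQC, featureCounts and Subread, without versions; the annotation release and the setting for strand and overlapping genes are not given in the sources used here. Counts were analysed with R 4.3.3 and edgeR 4.0.16: filterByExpr (minimum count 10, minimum total 15) kept 14274 of 60649 genes with at least 99.91% of each library's counts, TMM scaled the libraries, and the quasi-likelihood test was fitted once to all 9 libraries, with 1 mean for each group and without a block. Total counts were 15991396 to 20374460 per library, and the common biological coefficient of variation was 2.96%. Replicates differed by more than counting noise (chi-square per degree of freedom 1.76 to 4.24). Standard errors were derived from the F statistic. The script was tested on simulated data.

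The members and gene lists were chosen with earlier results of these data known. All 141 listed symbols were found. Named beyond the members and AHR were, from each list, up to 2 genes higher and 2 lower with both hairpins, with the largest mean change among genes averaging 0 or more in log2 CPM, the outputs IFNB1, CCL5 and CXCL10, and for each member the 3 genes with the highest r. Some values under this rule are not reported here. Marker genes, IL6, STAT2, IRF9, the remaining outputs, TLR7, TLR8 and genes that the hairpins moved in opposite directions were named outside the rule, after their values were seen. Positions and lengths come from GENCODE release 44 on GRCh38 and promoter windows from RefSeq. Alternatives were DESeq2 1.42.0, its size factors in edgeR, no filter, a mean of at least 50 counts, only the groups compared, a replicate block and leaving out each library.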

Additional observations from a re-analysis of the deposited data

Results flagged for a closer look

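IFIH1 was singled out because the hairpins moved it in opposite directions and their difference was itself tested: all 3 shAHR#2 libraries lay below and all 3 shAHR#3 libraries above every PLKO-GFP library, and shAHR#3 exceeded shAHR#2 by 0.97 on the log2 scale (edgeR adjusted p = 9.43e-10). The other listed genes that passed in opposite directions with the hairpins, and whose difference between the hairpins also passed, are given here after their values were seen. IFIT1, IFIT2 and IFIT3, interferon-induced genes of which IFIT1 binds foreign RNA, had log2 fold changes of -0.61, -0.19 and -0.42 with shAHR#2 and 0.43, 0.47 and 0.42 with shAHR#3, and differed between the hairpins by 1.03, 0.66 and 0.84. DDX60, a helicase cofactor of the RIG-I-like receptors, had -0.40 and 0.24 (difference 0.65), and STAT2 had -0.11 and 0.21 (difference 0.32). The opposite order was seen in TNFAIP3, an inhibitor of NF-kB signalling, at 0.61 and -0.49 (difference -1.09), in IFNAR1, a chain of the type I interferon receptor, at 0.36 and -0.14 (difference -0.50), and in IRAK1, a kinase of toll-like receptor signalling, at 0.08 and -0.26 (difference -0.34). The call of IRAK1 with shAHR#2 was lost without PLKO-GFP replicate 1 (0.0754, edgeR adjusted p = 0.0543). That of STAT2 with shAHR#2 was lost with DESeq2 (adjusted p = 0.0815) and without the filter on low counts (edgeR adjusted p = 0.0511). It was also lost when some single libraries were left out, as given above. Both comparisons with PLKO-GFP share the same control libraries.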

How the results depend on the processing

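The counts of members that passed were 6, 6 and 4, and with DESeq2 they were 6, 5 and 4. Leaving out 1 library at a time gave 5 to 7 with shAHR#2, 5 to 6 with shAHR#3 and 3 to 5 between the hairpins. The same numbers over all genes ran from 8864 to 8950, from 7219 to 7407 and from 5349 to 5676. Of the members' own values under the alternatives, 292 kept their direction and side of the threshold, 9 lost the call, 4 gained it and 4 changed sign. Those that changed sign were uncalled before and after. They were TLR3 with shAHR#3, which ran from -0.0635 to 0.13 as libraries were left out (-0.00883 without PLKO-GFP replicate 1, -0.00018 without shAHR#3 replicate 1 and -0.0635 without shAHR#3 replicate 2), and DDX58 between the hairpins, which ran from -0.234 to 0.0397, the latter without shAHR#2 replicate 1. Of the other named genes IL6 changed sign with shAHR#2 (highest 0.272, -0.0245 without PLKO-GFP replicate 2, -0.0705 without shAHR#2 replicate 2), as did IFNAR2 (lowest -0.107, 0.0372, 0.0655 and 0.00797 without shAHR#2 replicate 1, shAHR#3 replicate 2 and shAHR#3 replicate 3) and EIF2B2 (highest 0.0326, -0.00262 without shAHR#3 replicate 3) between the hairpins. The cause was not tested.

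Replicate numbers were not treated as pairs, since same-numbered libraries deviated together with correlations of 0.00 to 0.06, although each of the 9 correlated best with its own number. With the replicate number as a block, members called stayed 6, 6 and 4, and all genes called were 9406, 7844 and 6107. The block changed no call of a named gene. Adding the counts of the overlapping gene to DDX58 and using canonical lengths were chosen after seeing the data. DDX58 had the fewest reads of the members, at 19 to 46 per library. How far this reflects depth or the assignment of reads on its shared exons was not tested.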

Other observations

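Ratios between members within a library, which do not depend on its scaling, were computed after the values were seen and carry no test. Per unit of exon length, MDA5 transcript exceeded LGP2 transcript (IFIH1 over DHX58) by 3.2, 2.56 and 2.9 times in the PLKO-GFP libraries, 1.43, 1.57 and 1.06 times with shAHR#2 and 2.15, 2.02 and 2.12 times with shAHR#3. The groups did not overlap. MAVS over TRIM25 was 1.25, 1.25 and 1.22 with PLKO-GFP, 0.637, 0.646 and 0.686 with shAHR#2 and 0.869, 0.876 and 0.93 with shAHR#3, also without overlap. IFIH1 over TLR3 was 1.92, 1.59 and 1.66 with PLKO-GFP, 1.49, 1.68 and 1.39 with shAHR#2 and 2.38, 1.97 and 2.41 with shAHR#3, so that PLKO-GFP and shAHR#2 overlapped.

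IRF9, the DNA-binding subunit of a complex that recognises interferon-stimulated response elements, had no read in any PLKO-GFP library and at most 8 in the others. It shares 93.1% of its canonical transcript with a readthrough gene on its strand, ENSG00000259529.2, which had 0 to 5 reads, so its level cannot be read from these counts.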
